A study of Mus musculus with 8 samples.

Results

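The 10 genes described here encode costimulatory receptors of T cells and the TNF-family ligands that T cells display: Cd28, Icos, Tnfrsf4 (OX40), Tnfrsf9 (4-1BB), Tnfrsf18 (GITR), Cd27, Cd40lg (CD40 ligand), Tnfsf11 (RANKL), Tnfsf14 (LIGHT) and Cd226 (DNAM-1). They were taken by symbol from the platform annotation of a mouse whole-transcript expression array, each through its probe set with that symbol alone, and are 10 of 22180 genes read in this way. Each of the 10 had 1 such probe set, and 1 further probe set that carries the symbol of Tnfrsf18 beside that of a predicted gene was left out. The naive T cells were CD3+ cells of C57BL/6J mice, which were in general sex-matched and 8 weeks old, and were purified from spleens and lymph nodes by removing the other cells. They were left untreated, given latrunculin A (LatA) alone, or stimulated for 3 h in 3 ways, and cells of a second set were washed after that stimulation and cultured on to 24 h. Latrunculin A is a toxin that binds actin monomers and so blocks filament assembly. In the soluble condition (sAb), antibodies to CD3 and CD28 were given in solution and joined by a secondary antibody to hamster IgG. In the immobilized condition (iAb), the antibodies to CD3 and CD28 were fixed to the plate. The third condition was sAb together with LatA (sAb+LatA). All 6 stimulated populations therefore received an antibody to the protein product of Cd28, which is a gene of this set. The LatA array is labelled as a control for time, while the methods give 3 h of treatment. How many mice gave each RNA, and whether their cells were pooled, is not given in the sources used here.

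A T cell needs a second signal beside that of its antigen receptor. CD28 and ICOS bind ligands of the B7 family on antigen-presenting cells and signal through lipid kinases, whereas OX40, 4-1BB, GITR and CD27 belong to the TNF receptor family and recruit TRAF adaptors that activate NF-kB. T cells also carry ligands of the TNF family, of which CD40 ligand licenses B cells and dendritic cells, RANKL acts on RANK, and LIGHT on HVEM and the lymphotoxin beta receptor, and DNAM-1 is an adhesion receptor for the nectin-like proteins PVR and nectin-2.

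There was 1 array for each of the 8 conditions, so a difference between 2 arrays has no replicate error and no test. Levels are log2 signals, and higher or lower in a count means a gene that was at least 1.5-fold apart between 2 arrays. Probe sets of chemosensory receptor genes (1443 in number), which T cells are not known to use, set the background of an array through their 95th percentile, which lay between log2 4.70 and 4.99. The LatA and naive arrays, the pair without antibody, were used for judging spread, although they are not replicates: among genes above background on either array, 95% of their differences lay between -0.48 and 0.45 on the log2 scale. Medians of the arrays ran from 4.74 to 4.94, and the sAb+LatA array of 3 h had the lowest maximum (13.3). All 10 of 10 measured T cell markers were above background on every array. Myeloid and dendritic cell markers were above background for 2 to 6 of 10, and their summed level was log2 9.13 in naive T cells and 7.79 on the iAb array of 24 h, with Csf1r at 7.66 and 4.44. B cell markers were above background for 2 to 5 of 7 (summed level 7.80 to 8.36). Cd79b was above it on 8 arrays, Cd79a on 7, Fcer2a on 6, Ms4a1 on 5, Pax5 on 4, and Blnk and Cr2 on 0. Of 4 NK cell markers, 1 or 2 were above background (8.03 to 10.1, carried by Klrd1), and Ncr1 passed it on 1 array and Klrb1c on none. In bulk RNA of this kind, fewer cells of a type and less RNA per cell cannot be told apart.

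Of the 10 genes, 9 were above background on all 8 arrays, and Tnfsf14 was above it on 7. The range over the 8 arrays was at least 18.2-fold for Tnfsf14, whose lowest value was under background, and was wide for Cd40lg (15.9-fold), Tnfsf11 (10.7-fold) and Tnfrsf9 (4.67-fold). For the other 6 genes it lay between 1.66-fold (Tnfrsf18) and 2.22-fold (Cd27). The median range was 2.18-fold for the 10 genes and 1.64-fold for all 13373 genes above background on any array. The 3 ligands and Tnfrsf9 thus spanned wider ranges than the receptors Cd28, Icos, Tnfrsf4, Tnfrsf18, Cd27 and Cd226.

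**Figure D1:**
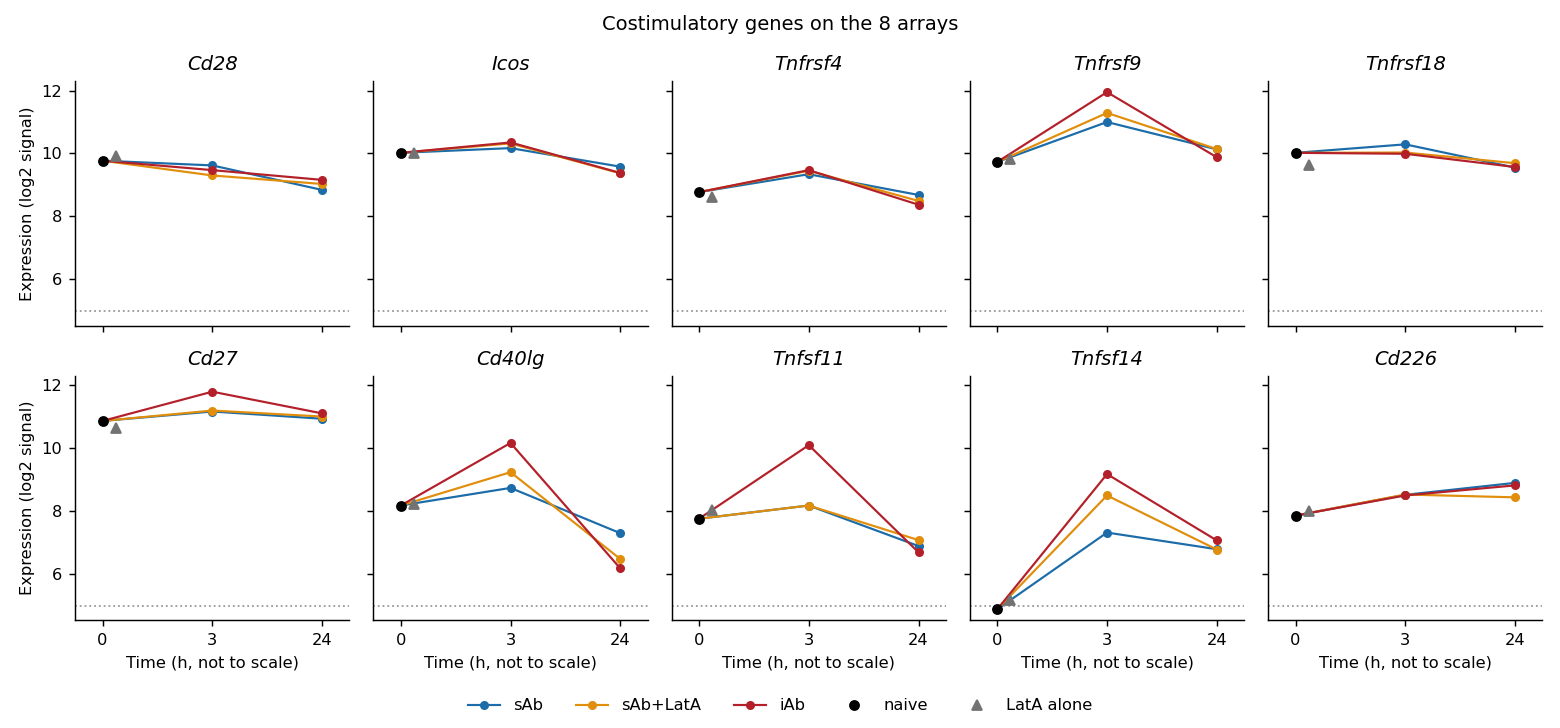
Log2 signal of the 10 genes on the 8 arrays, 1 array per point, with time in hours on the x axis (not to scale): naive T cells (black) at 0, LatA alone (grey triangle) beside them, and sAb, sAb+LatA and iAb at 3 h and 24 h. The dotted line is the highest background of any array (4.99), and the iAb points of Cd40lg (10.17), Tnfsf11 (10.10) and Tnfsf14 (9.18) at 3 h stand above all other points of those genes.

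Of the ligands that T cells display, all 3 had their highest level on the iAb array of 3 h. Cd40lg, whose product engages CD40 on B cells and dendritic cells, was at log2 8.18 in naive T cells and 8.24 with LatA alone. At 3 h it was at 8.74 with sAb, 9.24 with sAb+LatA and 10.17 with iAb, and at 24 h it was at 7.30, 6.48 and 6.18 in the same order. The order of the 3 stimuli was thus turned round between the times: iAb gave the highest level of all 8 arrays at 3 h and the lowest at 24 h. Against naive T cells, Cd40lg was 3.96-fold higher with iAb and 2.08-fold higher with sAb+LatA at 3 h, and 1.47-fold apart with sAb, which is under the threshold. At 24 h it was 1.84-fold lower with sAb, 3.26-fold lower with sAb+LatA and 4.01-fold lower with iAb. CD40 ligand is mostly a product of CD4+ T cells. Cd4 was at 11.34 in naive T cells, between 10.70 and 11.21 with antibody at 3 h and between 10.62 and 10.80 at 24 h, while Cd8a was at 9.82 in naive T cells and between 11.07 and 11.28 at 24 h. The part of such a shift in the levels of Cd40lg, Cd28, Icos and Tnfrsf9 was not tested.

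Tnfsf11, the ligand of RANK that is best known for driving osteoclast formation and lymph node development, had a different pattern at 3 h. Its levels were 7.76 in naive T cells, 8.03 with LatA, 8.18 with sAb, 8.18 with sAb+LatA and 10.10 with iAb. Only the iAb array stood apart, 5.06-fold above naive T cells, while both arrays with soluble antibody were 1.34-fold above them. At 24 h the levels were 6.89 with sAb, 7.08 with sAb+LatA and 6.69 with iAb, all below the naive array, by 1.83-fold, 1.61-fold and 2.11-fold. The 24 h level with iAb was 10.7-fold under its 3 h level.

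Tnfsf14, which costimulates through HVEM, was not above background in naive T cells (4.88 against a background of 4.99) and was at 5.16 with LatA. At 3 h it reached 7.32 with sAb, 8.50 with sAb+LatA and 9.18 with iAb, and at 24 h 6.79, 6.78 and 7.07. All 6 antibody-treated arrays lay above both arrays without antibody. Because the naive level is only a bound, the ratio to background was used: Tnfsf14 was at least 5.01-fold higher with sAb, 11.4-fold with sAb+LatA and 18.2-fold with iAb at 3 h. At 24 h it was at least 3.48-fold higher with sAb, 3.45-fold with sAb+LatA and 4.22-fold with iAb. Tnfsf14 was the only ligand of the 3 that stayed above its naive level at 24 h.

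Among the TNF receptors, Tnfrsf9 had the widest range. 4-1BB, its product, is a costimulator that is well known on CD8+ T cells after activation. Its levels were 9.73 in naive T cells and 9.83 with LatA, then 11.00 with sAb, 11.29 with sAb+LatA and 11.95 with iAb at 3 h. By 24 h they were 10.13, 10.14 and 9.88. It was 2.42-fold, 2.96-fold and 4.67-fold above naive T cells at 3 h in that order of stimuli, and between 1.11-fold and 1.33-fold above them at 24 h. With each array centred on the median of its expressed genes, the iAb difference at 24 h turned from 0.15 to -0.09 on the log2 scale.

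The upstream sequences of Tnfrsf9, Tnfsf14 and Tnfsf11 are shown because these 3 genes lay farthest above naive T cells on the iAb array of 3 h, and they differ in the letters they share with known motifs. RefSeq promoters of build GRCm38.p6 were used for 6 of the 10 genes (7 promoters), and not for Cd28, Icos, Cd40lg and Cd226. The 250 bases before each transcription start were searched on both strands for TGANTCA (AP-1), GGG followed after any 2 bases by TTTCC (NF-kB) and TGGAAA (NFAT), 3 families that act downstream of the T cell and TNF receptors. A match is shown in capitals, and an NF-kB match followed by A would also hold an NFAT match, which none of these did. The Tnfrsf9 windows are at chr4:150919905-150920154 and chr4:150927749-150927998 on the plus strand, and those of Tnfsf14 and Tnfsf11 are at chr17:57194182-57194431 and chr14:78308044-78308293 on the minus strand.
Tnfrsf9, first start: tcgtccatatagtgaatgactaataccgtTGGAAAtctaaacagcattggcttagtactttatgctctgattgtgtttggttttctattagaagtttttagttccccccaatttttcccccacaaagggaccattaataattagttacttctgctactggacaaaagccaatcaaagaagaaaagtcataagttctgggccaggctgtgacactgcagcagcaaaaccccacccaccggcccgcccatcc
Tnfrsf9, second start: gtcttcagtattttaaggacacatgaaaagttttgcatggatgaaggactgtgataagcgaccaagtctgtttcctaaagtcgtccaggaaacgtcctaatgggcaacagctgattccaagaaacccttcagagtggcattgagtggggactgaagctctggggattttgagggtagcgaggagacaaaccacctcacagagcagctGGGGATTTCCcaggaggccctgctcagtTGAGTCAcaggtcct
Tnfsf14: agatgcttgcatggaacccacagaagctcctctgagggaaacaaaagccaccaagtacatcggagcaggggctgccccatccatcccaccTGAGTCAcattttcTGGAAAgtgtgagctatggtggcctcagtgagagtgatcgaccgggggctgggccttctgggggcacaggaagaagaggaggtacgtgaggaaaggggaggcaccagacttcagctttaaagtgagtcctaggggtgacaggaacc
Tnfsf11: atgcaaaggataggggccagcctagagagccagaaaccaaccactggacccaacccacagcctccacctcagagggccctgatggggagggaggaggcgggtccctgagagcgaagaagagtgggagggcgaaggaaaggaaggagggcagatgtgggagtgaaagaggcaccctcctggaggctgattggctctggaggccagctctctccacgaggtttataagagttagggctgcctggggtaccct
The second start of Tnfrsf9 has an NF-kB match 43 bases and an AP-1 match 15 bases before the start, and its first start has an NFAT match 221 bases before it. Tnfsf14 has an AP-1 match at 160 bases and an NFAT match at 146 bases, and the window of Tnfsf11 holds none of the 3 motifs. Over 32851 promoters of the same length, AP-1 letters were found in 6.75%, NF-kB letters in 1.41% and NFAT letters in 18.6%, and over the 7 promoters of these genes in 2, 1 and 3. The third NFAT match was in Tnfrsf4, 220 bases before its start. A match describes letters only, and which start of Tnfrsf9 was transcribed in these cells was not tested.

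Tnfrsf4 and Tnfrsf18 are neighbours on chromosome 4 with no protein-coding gene between them, and both are known from regulatory as well as activated T cells. Tnfrsf4 was at 8.77 in naive T cells, 8.63 with LatA, 9.34, 9.45 and 9.47 with sAb, sAb+LatA and iAb at 3 h, and 8.68, 8.49 and 8.37 after 24 h. The 3 h levels with antibody all lay above both levels without it, by 1.48-fold (sAb), 1.60-fold (sAb+LatA) and 1.62-fold (iAb) against naive T cells. Tnfrsf18 was at 10.02 in naive T cells, 9.64 with LatA, 10.29, 10.03 and 9.99 at 3 h, and 9.55, 9.69 and 9.57 at 24 h. None of its differences from naive T cells reached 1.5-fold, and its range of 1.66-fold was the smallest of the 10 genes. Tnfrsf18 was also the gene with the largest difference between LatA and naive T cells (-0.38). Of 6 regulatory T cell markers, 6 were above background on every array, with a summed level of 11.1 to 11.9, and Foxp3, the factor that defines these cells, was at 9.68 in naive T cells, 10.40 to 10.76 with antibody at 3 h and 9.47 to 10.03 at 24 h. The markers did not move together: Ikzf2 was at 8.82 in naive T cells, 8.25 to 8.71 at 3 h and 7.42 to 7.92 at 24 h, and Nrp1 at 6.77, 6.17 to 6.85 and 5.74 to 6.22. Lrrc32 was at 9.74, 9.64 to 10.00 and 9.12 to 9.39 in the same order. Gpr83 rose from 5.23 to between 8.28 and 8.36 at 3 h and between 8.81 and 8.96 at 24 h. Ikzf4 rose from 6.91 to between 7.24 and 7.82, and then lay between 7.45 and 7.71. Their part in the levels of Tnfrsf4 and Tnfrsf18 was not tested.

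Cd27, a receptor that most naive T cells already display, was at 10.87 in naive T cells and 10.66 with LatA. At 3 h it was at 11.17 with sAb, 11.20 with sAb+LatA and 11.80 with iAb, and at 24 h at 10.94, 11.01 and 11.11. The iAb array of 3 h was 1.91-fold above naive T cells, and the other 5 antibody-treated arrays were within 1.26-fold of them. At 24 h, centring on the array median turned the sAb difference from 0.08 to -0.13 and the sAb+LatA difference from 0.14 to -0.07.

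Neither receptor of the CD28 family was past 1.5-fold from naive T cells at 3 h, and both were lower at 24 h. Cd28, the receptor that the stimulating antibody binds, was at 9.77 in naive T cells, 9.93 with LatA, 9.62 (sAb), 9.30 (sAb+LatA) and 9.47 (iAb) at 3 h, and 8.84, 9.03 and 9.16 at 24 h. It was the only 1 of the 10 genes that lay below its naive level on all 6 antibody-treated arrays, by 1.11-fold to 1.38-fold at 3 h and by 1.90-fold (sAb), 1.67-fold (sAb+LatA) and 1.53-fold (iAb) at 24 h. Icos, which supports follicular helper T cells, was at 10.02 in naive T cells, 10.00 with LatA, 10.17, 10.32 and 10.35 at 3 h, and 9.58, 9.37 and 9.38 at 24 h. Its 3 h levels were at most 1.26-fold above naive T cells, and its 24 h levels were lower by 1.36-fold with sAb, 1.58-fold with sAb+LatA and 1.56-fold with iAb. Cd28 and Icos flank Ctla4, the inhibitory receptor of the same family, on chromosome 1. Ctla4 was at 9.42 in naive T cells and at 8.88, 8.39, 8.37, 8.60, 8.62 and 8.68 on the 6 antibody-treated arrays in the order used above. The middle gene of this cluster was thus below its naive level at both times, and Icos at 24 h only.

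Cd226, the gene of an adhesion receptor that T cells share with NK cells, lay above naive T cells on all 6 antibody-treated arrays. Its levels were 7.86 in naive T cells, 8.02 with LatA, 8.52, 8.53 and 8.50 at 3 h, and 8.90, 8.44 and 8.82 at 24 h. The 3 stimuli at 3 h were within 0.03 of each other, and each was 1.56-fold to 1.59-fold above naive T cells, close to the threshold: sAb was short of it after median centring (0.55 on the log2 scale) and iAb after renewed quantile normalization (0.54). At 24 h it was 2.06-fold higher with sAb and 1.96-fold higher with iAb, while the sAb+LatA array, 0.58 above on the log2 scale, lay just under the threshold. TIGIT and CD96 bind the same ligands as DNAM-1 and act against it: Tigit was at 8.86 in naive T cells, 8.50 to 8.70 at 3 h and 6.59 to 6.84 at 24 h, and Cd96 was at 9.77 and between 9.40 and 10.26. Cd226 and Tigit therefore lay on opposite sides of their naive levels at 24 h with all 3 stimuli.

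**Figure D2:**
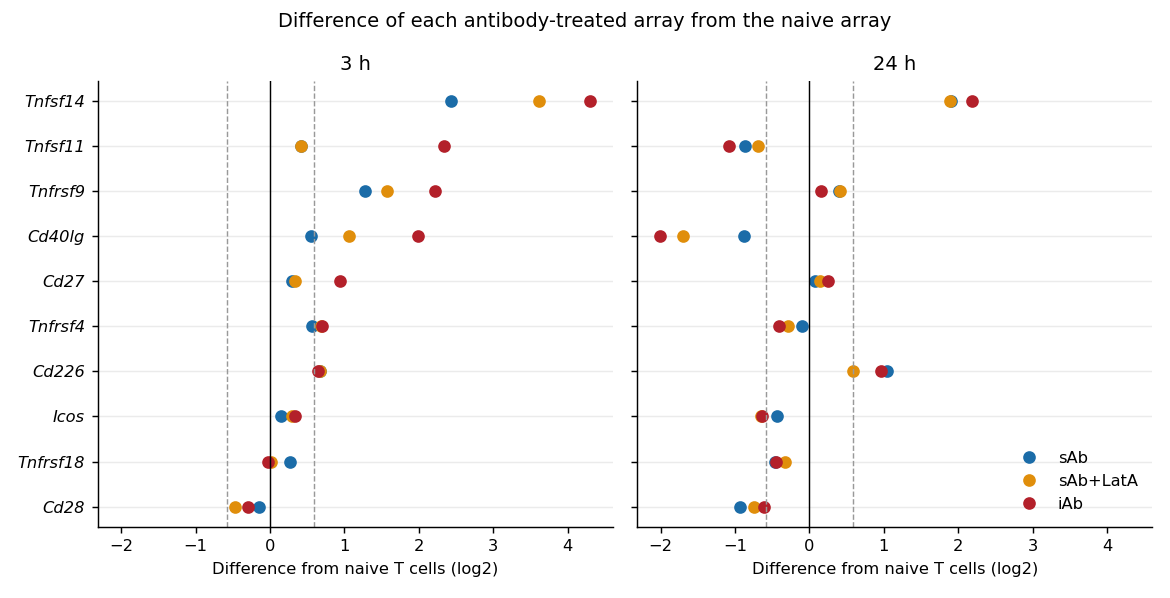
Difference in log2 signal of each antibody-treated array from the naive array for the 10 genes, at 3 h (left) and 24 h (right), 1 point per array and stimulus, with dashed lines at 1.5-fold. At 3 h the points of Tnfsf14, Tnfsf11, Tnfrsf9 and Cd40lg lie farthest to the right with iAb (at least 4.19 for Tnfsf14, drawn at its measured value although its naive level is under background, and 2.34, 2.22 and 1.98 for the others). At 24 h the points of Cd40lg, Tnfsf11, Cd28, Icos, Tnfrsf4 and Tnfrsf18 lie left of 0 with every stimulus.

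Counted together at 1.5-fold, the genes above naive T cells outnumbered those below at 3 h, and the balance was the other way at 24 h. At 2-fold the 24 h balance did not hold with sAb (2 higher, 0 lower) or with sAb+LatA (1 and 1). With iAb it was 1 higher and 2 lower. At 3 h, 3 of the 10 genes were higher with sAb (Tnfrsf9, Tnfsf14, Cd226), 5 with sAb+LatA (those 3, Tnfrsf4 and Cd40lg) and 7 with iAb (those 5, Cd27 and Tnfsf11), and 0 were lower. Among all genes above background on either array, 6.18% were higher and 3.54% lower with sAb (12301 genes), 10.4% and 8.78% with sAb+LatA (12472 genes), and 15.0% and 12.6% with iAb (12241 genes). The median difference of the 10 genes was 0.49, 0.54 and 0.81 on the log2 scale for the 3 stimuli, against 0.03, -0.04 and -0.03 over all genes. With arrays centred on their medians, Cd226 with sAb (0.55) no longer reached the threshold, and the other calls at 3 h were unchanged. The same centring moved the share of higher genes among all genes called from 63.5% to 39.0% with sAb and from 54.1% to 42.6% with sAb+LatA.

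At 24 h, 2 genes were higher with sAb (Tnfsf14 and Cd226), 1 with sAb+LatA (Tnfsf14) and 2 with iAb (Tnfsf14 and Cd226). With sAb, 3 genes were lower (Cd28, Cd40lg, Tnfsf11), and with sAb+LatA and with iAb it was 4, the same 3 and Icos. Over all genes 17.2% were higher and 8.84% lower with sAb (12501 genes), 19.6% and 11.8% with sAb+LatA (12611 genes), and 21.2% and 12.9% with iAb (12527 genes). The median of the 10 genes was -0.27, -0.30 and -0.43, against 0.03, 0.03 and 0.01 over all genes. Centring removed a median of -0.11 from the naive array and of 0.10 to 0.13 from the arrays of 24 h, and this added Icos (-0.65) and Tnfrsf18 (-0.68) to the lower genes with sAb and Tnfrsf4 (-0.65) and Tnfrsf18 (-0.69) with iAb. It moved the share of higher genes among all called from 66.0% to 39.3% with sAb, from 62.5% to 41.1% with sAb+LatA and from 62.1% to 37.7% with iAb. These 6 comparisons share the naive array, so an error on it would enter all of them. The study treats that array as the baseline, and no array held untreated cells cultured for 3 h or 24 h. Stimulation and time in culture therefore cannot be told apart in these differences.

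The comparison of iAb with sAb sets antibodies fixed to the plate against antibodies in solution joined by a secondary antibody. The conditions thus differ in that secondary antibody as well as in fixing. At 3 h, 5 of 10 genes were higher with iAb: Tnfsf11 (3.78-fold), Tnfsf14 (3.64-fold), Cd40lg (2.70-fold), Tnfrsf9 (1.93-fold) and Cd27 (1.56-fold). None was lower, while over all 12422 genes 8.65% were higher and 10.2% lower with iAb. The 5 genes hold all 3 ligands and 2 of the 4 TNF receptors, and Cd28, Icos, Tnfrsf4, Tnfrsf18 and Cd226 were within 1.23-fold. Median centring moved the share of higher genes among all called from 45.8% to 61.0% and left the 5 calls as they were. At 24 h, 0 genes were higher and 1 was lower, Cd40lg at 2.18-fold, against 3.21% and 2.59% of 12633 genes. Cd40lg was therefore above sAb at 3 h and below it at 24 h, and the other 4 genes that were higher at 3 h were within 1.21-fold of sAb at 24 h.

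**Figure D3:**
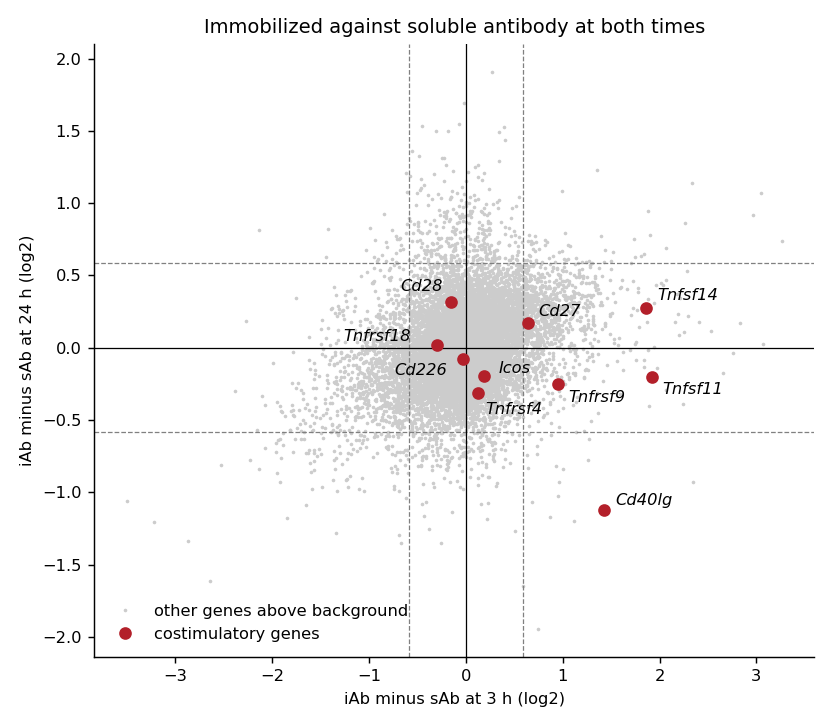
Difference in log2 signal between iAb and sAb at 3 h (x axis) and 24 h (y axis), with the 10 genes in red, all other genes above background in grey and dashed lines at 1.5-fold. Tnfsf11, Tnfsf14, Cd40lg, Tnfrsf9 and Cd27 lie right of the 3 h line, and Cd40lg alone among the 10 lies below the 24 h line (-1.12).

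Between sAb+LatA and sAb, 1 of the 10 genes was called at each time. At 3 h, 1 gene was higher, Tnfsf14 at 2.27-fold, and 0 were lower, against 2.45% and 3.4% of 12605 genes. At 24 h, 0 were higher and 1 was lower, Cd40lg at 1.77-fold, against 1.82% and 1.94% of 12700 genes. Centring moved the share of higher genes among all called at 3 h from 41.9% to 53.3% and left both calls of the 10 genes as they were. With LatA alone none of the 10 was past 1.5-fold (0 higher, 0 lower), against 0.919% and 1.14% of 11975 genes, and centring moved that share from 44.5% to 34.2%. The differences of the 10 genes between LatA and naive T cells ran from -0.38 (Tnfrsf18) to 0.27 (Tnfsf11 and Tnfsf14), inside the range that held 95% of genes. That range comes from the same 2 arrays, so lying inside it is no test of an effect of LatA.

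At 3 h the sAb+LatA level lay between those of sAb and iAb for 6 genes that were highest with iAb (Icos, Tnfrsf4, Tnfrsf9, Cd27, Cd40lg and Tnfsf14), and for Tnfrsf18, which was highest with sAb. The rising order was found for 24.7% of 12754 genes above background on any of these 3 arrays. The steps differed in size. For Cd40lg the levels 8.74, 9.24 and 10.17 were separated by 0.51 and 0.92, and for Tnfsf14 the levels 7.32, 8.50 and 9.18 by 1.18 and 0.68. For Tnfsf11 both arrays with soluble antibody were at 8.18, and the whole step of 1.92 lay between them and iAb. For Icos and Tnfrsf4 the 3 levels spanned 0.19 and 0.13, and the step from sAb to sAb+LatA was 0.03 for Cd27 and 0.29 for Tnfrsf9. These are inside the spread between the LatA and naive arrays, so among the 6 genes both steps exceeded that spread for Cd40lg and Tnfsf14 only.

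Time was tested with limma in a fit that adds a term for the stimulus to a term for the time over the 6 antibody-treated arrays, so that the 3 stimuli take the place of replicates. The cells of 24 h had been washed after 3 h of stimulation, so time and the end of stimulation cannot be told apart. Over 13287 genes, 13.2% were higher and 7.3% lower at 24 h than at 3 h at a Benjamini-Hochberg adjusted p under 0.05. Of the 10 genes, 7 fell and 0 rose, with a median difference of -0.87 on the log2 scale against 0.03 over all genes. Cd40lg fell by 2.73 ± 0.43 (SE; adjusted p = 0.00908), from 8.74 to 7.30 with sAb, 9.24 to 6.48 with sAb+LatA and 10.17 to 6.18 with iAb. Tnfsf11 fell by 1.94 ± 0.43 (adjusted p = 0.0275), Tnfsf14 by 1.45 ± 0.29 (adjusted p = 0.0196) and Tnfrsf9 by 1.37 ± 0.23 (adjusted p = 0.0114). Tnfrsf4 fell by 0.91 ± 0.13 (adjusted p = 0.00677), Icos by 0.83 ± 0.13 (adjusted p = 0.00858) and Tnfrsf18 by 0.50 ± 0.13 (adjusted p = 0.0413). For these 7 genes each stimulus showed the lower level at 24 h. Cd28 (-0.45 ± 0.14, adjusted p = 0.0735), Cd27 (-0.37 ± 0.14, adjusted p = 0.125) and Cd226 (0.21 ± 0.14, adjusted p = 0.351) did not pass. The fit takes the time effect as equal for all stimuli, while the decrease of Cd40lg was 1.43 with sAb, 2.76 with sAb+LatA and 3.99 with iAb, and that of Tnfsf11 was 1.29, 1.10 and 3.42. Without either sAb+LatA array, 3 of the 7 calls were left (Cd40lg, Tnfsf11 and Tnfrsf9) against 6.56% of all genes called in either direction, and Tnfrsf4 (adjusted p = 0.0525), Icos (0.0706), Tnfsf14 (0.0906) and Tnfrsf18 (0.135) were lost. Tnfrsf18 was lost as well without either iAb array (adjusted p = 0.0547) or either sAb array (0.170).

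The same fit gave no call for the stimuli. For iAb against sAb, 0% of 13287 genes passed (smallest adjusted p = 0.257). Before adjustment, 1075 genes were higher and 1041 lower at p under 0.05, and 1 of the 10 genes was among them, Tnfsf14 (1.07 ± 0.36, adjusted p = 0.265). For Cd40lg the fit averages a positive and a negative difference, and its value was 0.15. Without the iAb array of 24 h, which leaves iAb with the 3 h array alone and takes its spread as that of the other conditions, 2 of the 10 genes passed, Tnfsf11 (1.97, adjusted p = 0.0128) and Tnfrsf9 (0.88, adjusted p = 0.0433), against 7.56% of all genes in either direction. For sAb+LatA against sAb, 0% passed (smallest adjusted p = 0.799). Before adjustment, 281 genes were higher and 454 lower at p under 0.05, with 0 of the 10 genes among them.

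The other members of the TNF family were read from lists of 15 ligands, 13 of them measured, and 24 receptors. Counts for these and the lists below stand against the shares of all genes. Against naive T cells those were 6.18% to 15.0% higher and 3.54% to 12.6% lower at 3 h. At 24 h they were 17.2% to 21.2% higher and 8.84% to 12.9% lower. At 3 h the other ligands had 5 higher and 0 lower of 8 above background with sAb, 5 and 0 of 8 with sAb+LatA, and 5 and 0 of 10 with iAb, and their median differences were 0.89, 0.97 and 0.67. At 24 h it was 5 and 1 of 9, 5 and 2 of 8, and 4 and 1 of 8. Tnf, the founding cytokine of the family, was at 7.59 in naive T cells, 10.09, 10.85 and 11.35 at 3 h and 9.62, 9.75 and 9.47 at 24 h, so that its highest level was 13.5-fold above naive T cells. Lta, which encodes lymphotoxin alpha, was at 5.68 in naive T cells, 7.65, 8.12 and 8.29 at 3 h and 8.96, 9.08 and 8.76 at 24 h. Tnf thus had its highest level with iAb at 3 h, as Tnfsf14, Tnfsf11 and Cd40lg did, whereas Lta was higher at 24 h than at 3 h with each stimulus. Fasl, the death ligand, was at 7.42 in naive T cells, 7.42 to 7.90 at 3 h and 6.13, 5.45 and 5.68 at 24 h, which is the direction of Cd40lg at 24 h. Tnfsf4, the ligand of OX40, was at 5.45 in naive T cells and 4.61 with sAb+LatA at 24 h, where it was below background.

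The other TNF receptors were called in both directions, and most did not reach 1.5-fold, which was also true of all genes above background. They had 1 higher and 1 lower of 17 above background with sAb at 3 h, 3 and 1 of 18 with sAb+LatA and 3 and 2 of 18 with iAb, and at 24 h 3 and 3 of 19, 3 and 3 of 20, and 4 and 3 of 19. Fas, the death receptor, was at 6.86 in naive T cells and at 8.60, 9.09 and 8.47 at 3 h, 4.69-fold higher with sAb+LatA, and at 7.97, 7.86 and 7.97 at 24 h. Tnfrsf8 (CD30) was below background in naive T cells at 4.91 and reached 5.85, 5.82 and 6.01 at 24 h. Tnfrsf1b, the second receptor for TNF, was at 9.34 in naive T cells, 9.02, 9.16 and 9.97 at 3 h and 7.79, 7.70 and 7.80 at 24 h. Tnfrsf23, a decoy receptor in mice, was at 7.32 in naive T cells and 5.68 with sAb+LatA at 24 h.

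Partners of the 10 genes on antigen-presenting cells were read as well. Among them, Tnfsf4, Tnfsf9, Tnfsf18, Cd70, Cd40, Tnfrsf11a, Tnfrsf14 and Ltbr were also counted with the other TNF ligands and receptors above. Of 13 partners, 10 were above background in each comparison of antibody-treated with naive T cells. Tnfsf18, Cd70 and Tnfrsf11a, the partners of GITR, CD27 and RANKL, were above it on 0 of 8 arrays. After 3 h, 1 partner was higher with sAb, 3 with sAb+LatA and 3 with iAb, and 0 were lower. By 24 h, 0 were higher and 1 lower with sAb, 1 and 3 with sAb+LatA, and 1 and 2 with iAb. Tnfsf9, the ligand of 4-1BB, was below background in naive T cells at 4.82 and at 5.61, 5.69 and 5.66 at 3 h and 5.29, 5.81 and 5.39 at 24 h. Cd80 was at 6.20 in naive T cells and 7.02 with iAb at 3 h, and Cd86 was at 6.10 and 5.12 with iAb at 24 h. Both B7 ligands of CD28 are known from myeloid cells, whose markers were lower at 24 h, and the part of those cells in Cd86 was not tested.

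TRAF adaptors and members of the noncanonical NF-kB pathway carry the signal of the TNF receptors inside the cell. Of 12 measured, 1 was higher and 0 lower with sAb at 3 h, 1 and 3 with sAb+LatA, and 0 and 2 with iAb. By 24 h these counts were 1 and 6, 0 and 6, and 0 and 6 for the same stimuli. Over all genes 17.2% to 21.2% were higher and 8.84% to 12.9% lower at 24 h. Map3k14 (NIK), the kinase that starts the noncanonical pathway, was at 7.54 in naive T cells, 7.34 to 7.55 at 3 h and 6.33, 5.88 and 6.18 at 24 h. Traf1 was at 9.90 in naive T cells, 9.44 to 9.74 at 3 h and 9.24, 8.65 and 8.80 at 24 h. Traf5 stood apart from both, with 6.62 in naive T cells, 6.93, 5.99 and 6.37 at 3 h and 7.80, 7.03 and 7.11 at 24 h. Nfkbie, an inhibitor of NF-kB that is also its target, was at 7.26 in naive T cells and 8.02 with sAb at 3 h.

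Inhibitory receptors were read from a list of 6, all but Pdcd1 known to share a ligand with the products of these genes. At 3 h, 2 of 6 were higher with each stimulus, Cd160 and Btla, and 1, 2 and 1 were lower with sAb, sAb+LatA and iAb. At 24 h, 1 was higher and 3 were lower with each stimulus. Cd160 and Btla encode receptors for HVEM, the same partner as LIGHT. Cd160 was at 5.28 in naive T cells, 5.87 with LatA, 6.47, 6.88 and 8.89 at 3 h and 5.91, 6.25 and 6.25 at 24 h, so the iAb level at 3 h was 12.2-fold above naive T cells, and LatA alone was just past 1.5-fold. Btla was at 8.55 in naive T cells, 9.56, 9.64 and 10.06 at 3 h and 8.92, 9.09 and 9.03 at 24 h. Tnfsf14, Cd160 and Btla, which encode partners of HVEM, had their highest level of the 8 arrays with iAb at 3 h, whereas Tnfrsf14, the gene of HVEM, was at 7.79 in naive T cells and highest with sAb+LatA at 3 h (8.41). Pdcd1 (PD-1) was at 8.97 in naive T cells, 8.12 to 8.78 at 3 h and 6.71, 6.41 and 6.69 at 24 h.

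**Figure D4:**
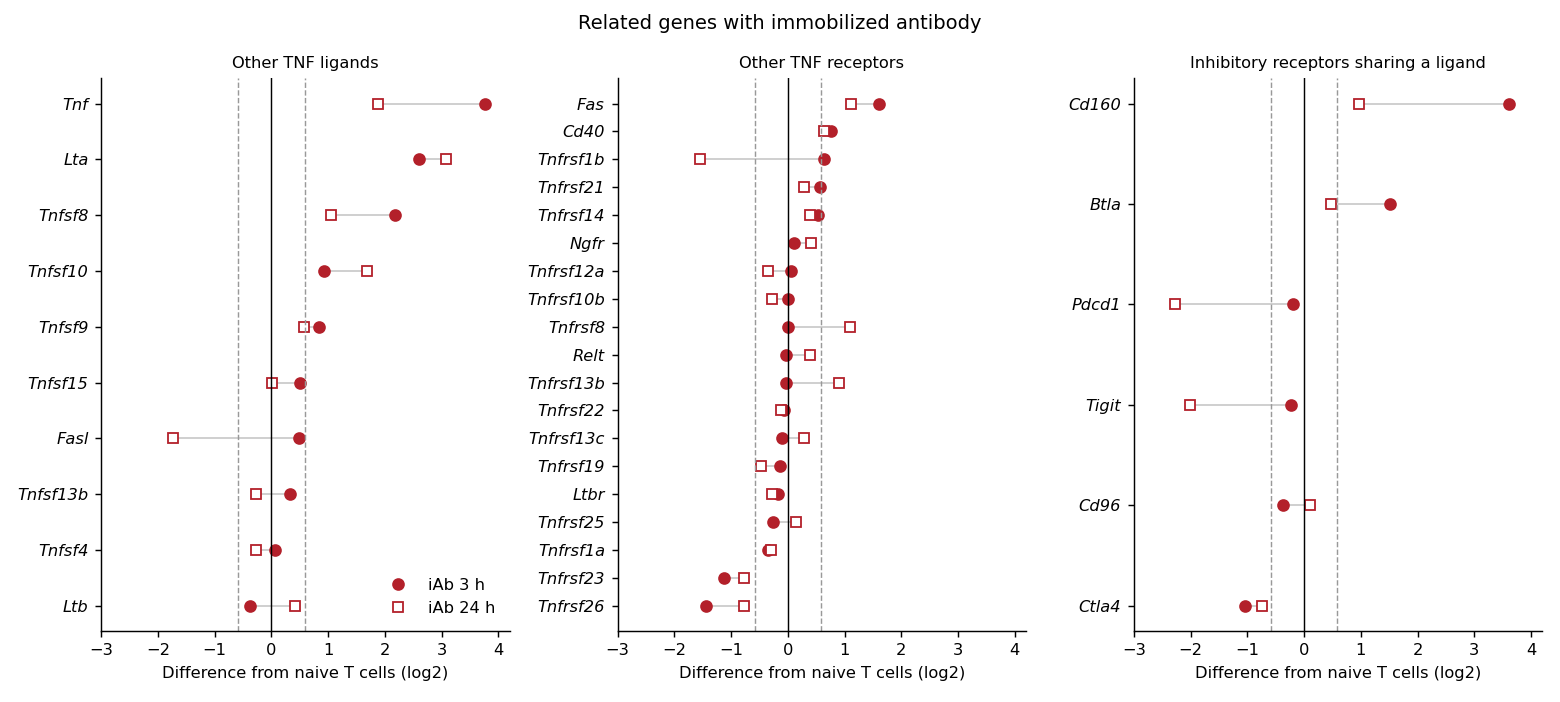
Difference in log2 signal from naive T cells with iAb at 3 h (filled circles) and 24 h (open squares), 1 array each, for other TNF ligands, other TNF receptors and inhibitory receptors, with dashed lines at 1.5-fold. The inhibitory receptors, apart from Pdcd1, share a ligand with the products of the 10 genes. Tnf (3.76 at 3 h) and Cd160 (3.61 at 3 h) lie farthest to the right. Fasl, Tnfrsf1b, Tnfrsf23, Tnfrsf26, Pdcd1, Tigit and Ctla4 lie left of the 1.5-fold line at 24 h.

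Likeness of pattern was measured as the root mean square difference between log2 profiles centred on their own mean over the 8 arrays, among 3652 or 3653 other genes with a range of at least 1 on the log2 scale. The genes nearest to Cd40lg were Nr4a1 (0.34), Atf3 (0.37) and Kdm6b (0.38), and those nearest to Tnfsf11 were Plk3 (0.29), Egr2 (0.30) and Gfod1 (0.31). Several of these, such as Nr4a1, Egr2 and Atf3, encode immediate early transcription factors. Nearest to Tnfsf14 were Ccl4 (0.22), Ccr4 (0.28) and Tnf (0.29), and nearest to Tnfrsf9 were Stap1 (0.14), Mapk11 (0.15) and Lcp2 (0.17). Icos was nearest to Necap1, Ehd1 and Bmp2k, Tnfrsf4 to Sdc4, Arhgef3 and Cd6, Tnfrsf18 to Cldn10, S1pr2 and Anxa2, Cd27 to Spryd4, Pigw and Slc39a14, Cd28 to Ptprm, Cdk11b and Dcaf10, and Cd226 to Rab19, Znhit2 and Mitd1, at distances of 0.07 to 0.20. Among the 10 genes the closest pairs were Icos and Tnfrsf4 (0.19), Icos and Tnfrsf18 (0.24) and Tnfrsf4 and Tnfrsf18 (0.26). Profiles with a small range are close to each other by construction, and the 8 values are shared arrays of different conditions, so these distances are a description.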

How the data were processed

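RNA of CD3+ T cells was biotin-labelled and hybridised to 8 mouse whole-transcript arrays, 1 per condition. The arrays were normalized by the authors with the robust multi-average method, which corrects background, equalises the distributions of probes and summarises each probe set. The deposited values are log2 signals, a scale read from the values because it is not given in the sources used here. Tools and versions of that step are not given in those sources either. Log2 values were used as deposited. Of 41345 probe sets, 23521 carry 1 gene symbol in the platform annotation, 1820 several and 16004 are not listed. For a gene with several single-symbol probe sets the probe set of highest mean over all arrays stood for it, which gave 22180 genes. Symbols were looked up by gene number in a RefSeq table (23328 found, 0 changed), and Cd247, Lck, Klra8, Clec9a, Traf3, Chuk, Tnfsf12 and Tnfsf13 of the lists were not read. No 2 arrays were identical (0 pairs).

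A gene entered a comparison of 2 arrays when it was above background on either, and was called at 1.5-fold, the fold the study names for its heatmap. The additive fit (4 coefficients, 2 residual degrees of freedom) was made with limma 3.58.1 in R 4.3.3 on genes above background on any of 6 arrays, with Benjamini-Hochberg adjustment over all of them, and was tested on simulated data. Its error term is the departure of the conditions from additivity, not the spread between mice. Other steps used Python 3.11.15. The number of arrays and the signal over background limit the precision. The 10 genes, the gene lists and the rules were chosen with earlier results of these data known. Genes named from the lists are the 2 with the largest increase and the 2 with the largest decrease over the 6 comparisons with naive T cells, together with Tigit, Cd96 and Ctla4, which were named for their place beside Cd226, Cd28 and Icos. Alternatives were 2-fold as the threshold, median centring, renewed quantile normalization, the 90th percentile or no filter for background, the mean of probe sets, an intensity trend and leaving out each array or stimulus.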

Additional observations from a re-analysis of the deposited data

Results flagged for a closer look

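Cd40lg differed in opposite directions between iAb and sAb at the 2 times. At 3 h the iAb array was at log2 10.17 and the sAb array at 8.74, a difference of 1.43, and at 24 h they were at 6.18 and 7.30, a difference of -1.12. Each of these differences was past 1.5-fold, and there was 1 array for each condition, so the difference between the times was not tested. The sAb+LatA array lay between the other 2 at both times, at 9.24 and 6.48.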

How the results depend on the processing

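With 2-fold in place of 1.5-fold, the genes called against naive T cells were 3 in place of 5 with sAb+LatA and 4 in place of 7 with iAb at 3 h, and 2 in place of 5 with sAb, 2 in place of 5 with sAb+LatA and 3 in place of 6 with iAb at 24 h. At 24 h the genes past 2-fold were 2 higher and 0 lower with sAb, 1 and 1 with sAb+LatA, and 1 and 2 with iAb. The shares of all genes past 2-fold in these comparisons were 6.21% and 12% at 3 h and 10.4% to 15.7% at 24 h. For iAb against sAb at 3 h the count was 3 in place of 5 (5.69% of all genes), and for sAb+LatA against sAb at 24 h it was 0 in place of 1 (0.189%). The other counts from pairs of arrays (59) stayed within 1.5 times, and the differences of single genes between 2 arrays (550 values) kept their direction where called or moved by less than the spread between the arrays. Of them, 5 crossed 1.5-fold under median centring (Cd226 with sAb at 3 h, Icos and Tnfrsf18 with sAb at 24 h, and Tnfrsf4 and Tnfrsf18 with iAb at 24 h), and 1 under renewed quantile normalization (Cd226 with iAb at 3 h, 0.54). In the fit of time, leaving out either sAb+LatA array gave 3 genes in place of 7, as did leaving out both. Leaving out any other array lost Tnfrsf18. For iAb against sAb, leaving out 1 array gave 0 to 2 in place of 0. Among single genes in the fits, 358 values kept their call, 19 lost it and 3 gained it. Tnfrsf18 did not pass without the background filter (adjusted p = 0.0572), and Cd28 passed after median centring (-0.61, adjusted p = 0.0237). The causes of these changes were not tested, apart from the fewer arrays in the fits that leave some out. No paired analysis was possible because each condition has 1 array and the labels number no replicates to pair, so the blocks of the fit were the stimuli and times.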
